A study of Mus musculus with 8 samples.

Results

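NF-kB is a family of transcription factors that switch on inflammatory genes, and this account follows 10 mouse genes that encode its subunits, its inhibitors and its feedback regulators. The genes are Nfkb1, Nfkb2 and Relb (subunits), Nfkbia, Nfkbie and Nfkbiz (IkB proteins), Tnfaip3 and Tnip1 (ubiquitin-linked brakes), and Ripk2 and Birc3 (signalling proteins). They were taken by name from the table of non-normalized signals, where 15 of 25697 probes carry these names, 10 of 18138 gene names in all. The arrays were single-colour Illumina bead arrays of total RNA from mouse embryonic fibroblasts (MEFs), connective tissue cells grown from embryos, with 8 arrays in 4 groups of 2. Wild-type MEFs and MEFs labelled TICAM knockout were transfected with c-di-GMP at 8 µg/ml, or given an equal amount of DMSO, for 30 min with a lipid reagent, and RNA was taken 4 h after transfection. Both genotypes grew in the same medium with 10% serum. Strain, embryo age and the number of cultures behind each group are not given in the sources used here, and the p-values cover no more than array-to-array spread, which may be technical. The series design names the knocked-out gene as TICAM1, which encodes TRIF, the adaptor of Toll-like receptors 3 and 4. The comparisons ask how c-di-GMP, a bacterial second messenger sensed through STING, changes these transcripts in each genotype.

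In resting cells NF-kB dimers are held in the cytoplasm by IkB proteins. When the IKK kinases mark IkB for destruction, the dimers enter the nucleus and start transcription, and among their best known targets are the genes of their own inhibitors, so that the signal limits itself. In fibroblasts this loop follows tumour necrosis factor, interleukin 1, Toll-like receptor ligands and, more weakly, STING.

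RefSeq promoter windows, from 250 bases before to 50 bases after an annotated start, were found for 6 of the 10 genes, with several starts for Tnfaip3 and Nfkb2. No window was found for Nfkb1, Relb, Nfkbiz and Ripk2. The windows below are those of the feedback genes and of the Nfkb2 subunit, shown because they hold the element that NF-kB binds. They are read on the strand of the gene in build GRCm38.p6, and capitals mark matches to the kappa B consensus on either strand.
Tnfaip3, upstream start, minus strand of chr10:19015361-19015660: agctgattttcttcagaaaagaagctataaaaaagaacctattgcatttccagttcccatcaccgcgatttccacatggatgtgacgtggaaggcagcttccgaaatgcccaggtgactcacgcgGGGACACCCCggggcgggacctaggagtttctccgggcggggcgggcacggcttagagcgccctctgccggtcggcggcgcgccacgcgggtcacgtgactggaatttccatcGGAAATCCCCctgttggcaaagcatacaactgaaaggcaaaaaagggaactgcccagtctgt
Tnip1, minus strand of chr11:54962891-54963190: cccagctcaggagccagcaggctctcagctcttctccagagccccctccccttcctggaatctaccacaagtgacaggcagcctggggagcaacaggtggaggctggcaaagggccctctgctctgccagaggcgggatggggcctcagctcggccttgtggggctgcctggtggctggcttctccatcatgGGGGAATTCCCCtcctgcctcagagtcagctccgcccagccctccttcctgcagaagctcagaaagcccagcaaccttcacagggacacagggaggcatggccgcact
Nfkbia, minus strand of chr12:55492598-55492897: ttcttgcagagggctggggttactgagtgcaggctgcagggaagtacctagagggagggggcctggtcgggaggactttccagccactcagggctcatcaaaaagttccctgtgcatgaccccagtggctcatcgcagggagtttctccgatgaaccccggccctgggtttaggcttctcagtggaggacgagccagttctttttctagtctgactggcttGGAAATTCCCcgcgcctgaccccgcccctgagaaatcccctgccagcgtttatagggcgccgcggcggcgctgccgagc
Nfkbie, plus strand of chr17:45555450-45555749: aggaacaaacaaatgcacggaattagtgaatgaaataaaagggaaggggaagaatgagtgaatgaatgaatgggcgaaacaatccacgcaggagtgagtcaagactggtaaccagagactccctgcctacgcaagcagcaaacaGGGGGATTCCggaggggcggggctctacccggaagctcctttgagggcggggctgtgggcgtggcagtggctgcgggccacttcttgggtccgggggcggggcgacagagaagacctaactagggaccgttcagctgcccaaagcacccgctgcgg
Nfkb2, first of its starts, plus strand of chr19:46304487-46304786: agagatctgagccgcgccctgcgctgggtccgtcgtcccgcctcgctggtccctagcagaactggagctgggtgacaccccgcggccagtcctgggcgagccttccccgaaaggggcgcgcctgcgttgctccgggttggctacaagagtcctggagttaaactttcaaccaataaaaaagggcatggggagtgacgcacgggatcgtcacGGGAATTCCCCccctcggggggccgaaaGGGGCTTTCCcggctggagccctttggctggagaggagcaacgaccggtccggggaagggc

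The Tnfaip3 window held 2 matches, of which the nearer, GGGGATTTCC on the opposite strand, lay at bases -12 to -3. The Nfkbia match, GGGAATTTCC on the opposite strand, lay at bases -29 to -20. In the Tnip1 window 3 overlapping matches lay between bases -58 and -47. The Nfkbie match, GGGGGATTCC, lay at bases -106 to -97. The first Nfkb2 window held 3 matches, and the other Nfkb2 starts shared a copy of GGGACTTTCC, which lay at bases 11 to 20 of one and -225 to -216 of the other. Counted over all, 7 of the 9 windows and 5 of the 6 genes had a match, and the windows of Birc3 and of the downstream Tnfaip3 start had none. Across the 32851 windows of all genes the share with a match was 8.46%. The core of the interferon-stimulated response element, GAAA followed after 2 bases by GAAA, was searched on both strands as well. It was in 0 of the 9 windows, against 3.44% of all windows. Letters in a window are a description of sequence and do not show binding.

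**Figure D1:**
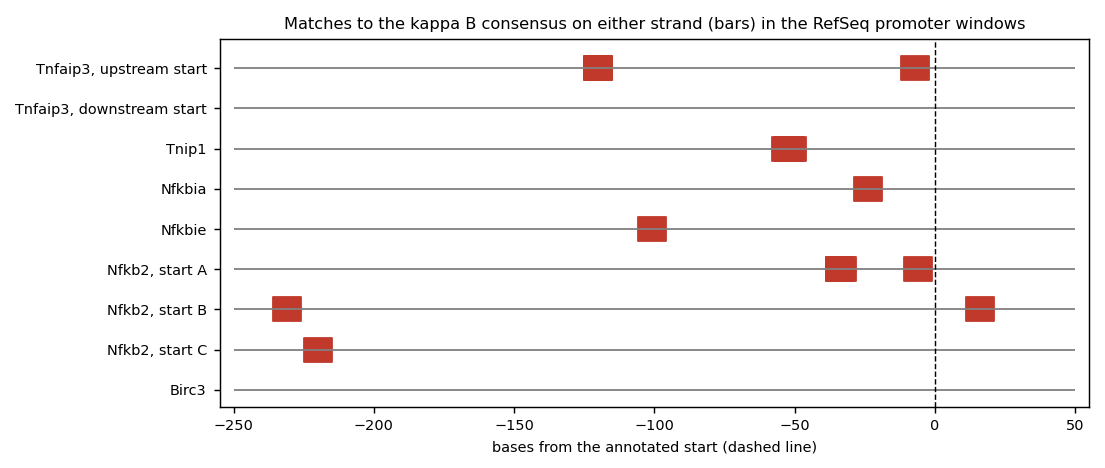
Position of matches to the kappa B consensus in the promoter windows of 6 genes. The x axis is the distance in bases from the annotated start, each grey line is 1 of the 9 windows and each red bar is a match on either strand. Matches were found in 7 windows, and the windows of Birc3 and of the downstream Tnfaip3 start hold none.

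Array quality bears on each result. On 7 arrays 11254 to 11657 of the probes had a detection p under 0.05, but 6468 had on the second knockout DMSO array. On that array 3 of the 10 genes were detected (Nfkbia, Nfkbiz and Tnfaip3), and the lowest detected log2 intensity was 7.53, against 5.36 to 5.45 on the others. All 10 genes were detected on each of the other 7 arrays. The correlation between arrays of a group was 0.833 across probes for knockout DMSO and 0.984 to 0.993 for the other groups. The comparisons of the 10 genes are therefore given with and without that array. Without it, knockout DMSO is 1 array, assumed to vary like the other groups. Of 11 fibroblast markers on the array 8 were detected on every array. The probe for Ticam1 was detected on 3 of 8 arrays and read 5.01 to 5.63 (log2) in knockout and 5.01 to 5.52 in wild-type cells, so it checks no label.

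Genes were tested with limma over 9554 genes with a detected probe, each by its brightest probe. Levels are normalized log2 intensity, differences are on the log2 scale ± standard error (SE), and a call means a Benjamini-Hochberg adjusted p under 0.05. All 10 genes entered the test. The members, and the lists used below, were chosen with earlier results of these data known. Their counts are given beside the share of all genes called, which does not correct for that choice.

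The A20 gene Tnfaip3 and the kinase gene Ripk2 rose in wild-type cells given c-di-GMP, by 4.36-fold and 4.22-fold. All 10 differences were positive, from 0.26 for Nfkb2 to 2.12 for Tnfaip3, with a median of 1.20 against -0.06 over all genes. With all 8 arrays, 2 of the 10 genes were called higher and 0 lower, against 0.586% of all genes called higher and 0.0105% lower. Without the second knockout DMSO array 5 were called higher and 0 lower, against 3.89% and 1.97% of all genes. The additional genes were Tnip1, Nfkb1 and Relb. For 9 of the 10 genes both c-di-GMP arrays lay above both DMSO arrays, which held for 20% of all genes, and 0 had both below, against 29.5%. The 2 calls rest on few arrays. Leaving out any 1 of the wild-type arrays or of the knockout c-di-GMP arrays lost these calls, and nearly all or all calls over all genes. Leaving out either knockout DMSO array raised the calls among the members and over all genes. Under median scaling in place of quantile normalization 0 members were called in each comparison between genotypes and in wild-type cells, and the median over all genes moved from -0.06 to -0.24 in wild-type cells.

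**Figure D2:**
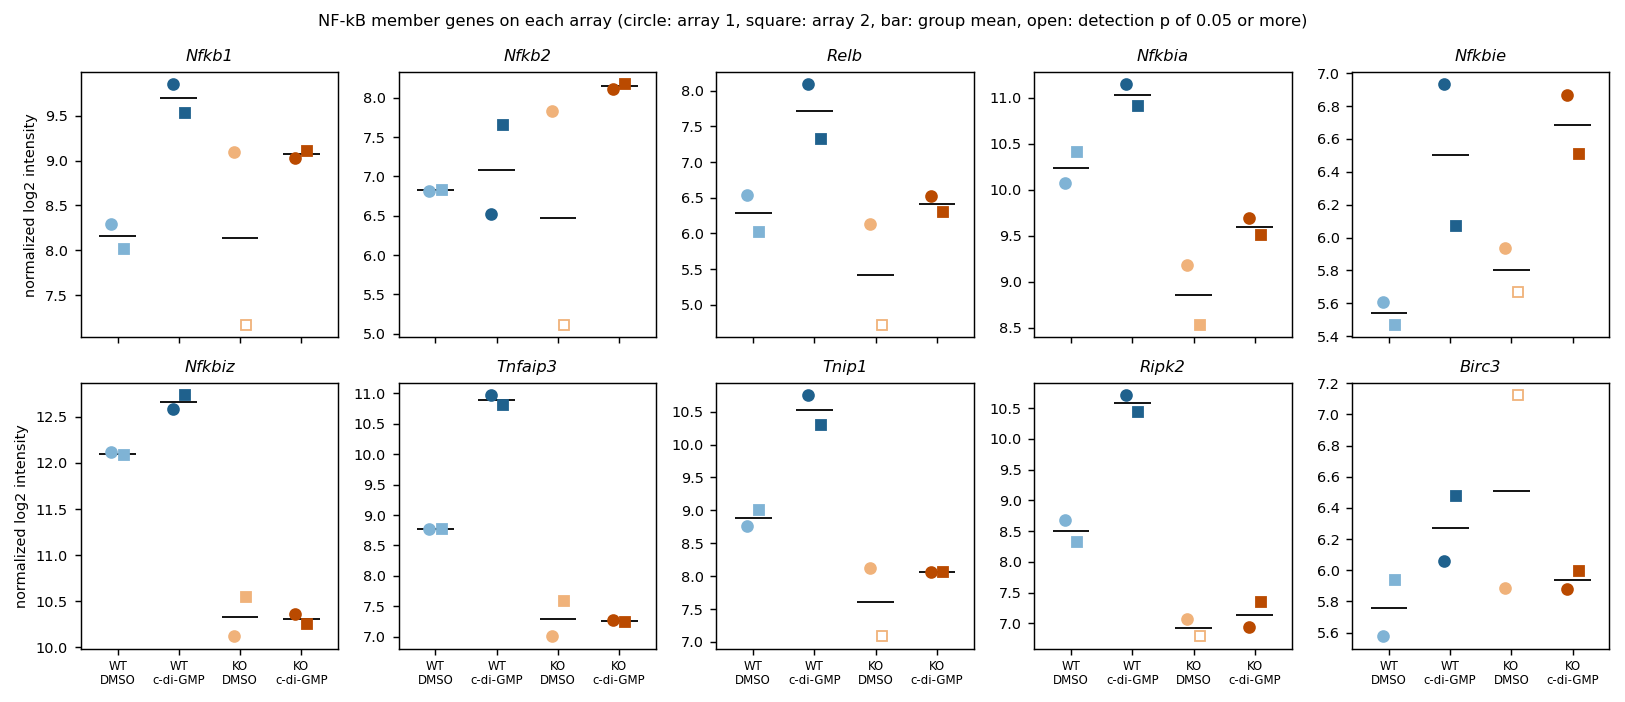
Normalized log2 intensity of the 10 genes on each array (y axis, a scale of its own in each panel) by group (x axis). Circles are array 1, squares array 2, bars the group mean, and open symbols have a detection p of 0.05 or more. Tnfaip3, Ripk2 and Tnip1 are highest in treated wild-type cells, and the open square of the second knockout DMSO array lies far from the circle for Nfkb1, Nfkb2, Relb and Birc3.

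Tnfaip3 encodes A20, a ubiquitin-editing enzyme that shuts down signals to NF-kB. It read 8.76 and 8.77 on the wild-type DMSO arrays and 10.97 and 10.81 with c-di-GMP. In knockout cells it read 7.00 and 7.59 with DMSO and 7.28 and 7.25 with c-di-GMP. Wild-type arrays thus stood above all knockout arrays under either treatment, and those with c-di-GMP highest. The wild-type difference was 2.12 ± 0.28, or 4.36-fold (adjusted p = 0.0383, and 0.000795 without the second knockout DMSO array). Knockout cells with and without c-di-GMP overlapped, at -0.04 ± 0.28 (95% interval -0.71 to 0.64). The overlap rests on the 7.59 of the weak array, where its detection p was 0.0476 and the lowest detected level 7.53. Without the weak array the knockout difference was 0.26 ± 0.19 (95% interval -0.20 to 0.71).

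Tnip1 encodes ABIN-1, a partner of A20. Its brightest probe read 8.76 and 9.01 in wild-type DMSO cells, 10.75 and 10.30 with c-di-GMP, 8.12 and 7.08 in knockout DMSO cells, and 8.07 and 8.07 in treated knockout cells. The 7.08 is the weak array, where the probe was not detected. Wild-type arrays with c-di-GMP stood clear of all others. The wild-type difference of 1.64 ± 0.39 (3.12-fold) had adjusted p = 0.232 with all arrays and passed without the weak array (1.64 ± 0.20, adjusted p = 0.00548). Of the 4 Tnip1 probes, 1 was detected on no array and another on 2. The remaining probe differed by 0.91 ± 0.65 in wild-type cells, so it had the same sign at a smaller size.

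Ripk2, which encodes the kinase that carries the signal of the NOD1 and NOD2 receptors, read 8.68 and 8.32 in wild-type DMSO cells and 10.71 and 10.44 with c-di-GMP. In knockout cells it read 7.07 and 6.79 with DMSO, the lower not detected, and 6.94 and 7.34 with c-di-GMP. The order was wild type with c-di-GMP, wild type with DMSO, then knockout cells, whose treatments overlapped. The wild-type difference was 2.08 ± 0.29, or 4.22-fold (adjusted p = 0.0433, and 0.00296 without the weak array). A dimmer Ripk2 probe, detected on 3 arrays, all wild type, differed by 1.01 ± 0.26 (adjusted p = 0.302 among all detected probes). Birc3 encodes cIAP2, a ubiquitin ligase of tumour necrosis factor receptor signalling. It read 5.57 to 5.94 in wild-type DMSO cells and 6.06 to 6.48 with c-di-GMP. That difference, 0.51 ± 0.43, did not pass in either fit (adjusted p = 1.00 and 0.225).

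Among the subunits, Nfkb1 encodes p105, the precursor of p50. It read 8.30 and 8.02 in wild-type DMSO cells and 9.85 and 9.53 with c-di-GMP, 1.54 ± 0.59 or 2.90-fold (adjusted p = 0.644). Without the weak array it passed (1.54 ± 0.19, adjusted p = 0.00544). Relb, whose protein pairs with the Nfkb2 product, read 6.54 and 6.02 with DMSO and 8.09 and 7.33 with c-di-GMP. Its difference of 1.43 ± 0.52 (2.69-fold, adjusted p = 0.606) also passed without the weak array (adjusted p = 0.0363). Nfkb2, which encodes p100, the precursor of p52, was the 1 gene of the 10 whose wild-type groups overlapped. It read 6.82 and 6.83 with DMSO and 6.52 and 7.66 with c-di-GMP, 0.26 ± 0.83 (95% interval -1.72 to 2.25).

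Among the IkB genes, Nfkbia encodes IkB alpha, the inhibitor that NF-kB resynthesises first. It read 10.08 and 10.41 with DMSO and 11.15 and 10.92 with c-di-GMP in wild-type cells, 0.79 ± 0.31 or 1.73-fold (adjusted p = 0.684, and 0.0625 without the weak array). Nfkbie, for the slower inhibitor IkB epsilon, differed by 0.96 ± 0.35 (adjusted p = 0.609, and 0.113 without the weak array). Its c-di-GMP arrays read 6.93 and 6.07, and its other probe was detected on no array. Nfkbiz encodes IkB zeta, a nuclear cofactor for genes such as Il6 and Lcn2. It differed by 0.56 ± 0.26, or 1.47-fold (adjusted p = 0.847, and 0.101), from 12.12 and 12.08 to 12.58 and 12.73. None of these IkB genes passed in wild-type cells, though in each both c-di-GMP arrays lay above both DMSO arrays.

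In knockout cells no member was called for c-di-GMP against DMSO, and limma called 0% of all genes in either direction. At an unadjusted p under 0.05 stood 1 of the 10 genes, Nfkbie, and 254 of all genes. The differences ran from -0.57 for Birc3 to 1.68 for Nfkb2 with a median of 0.61, against 0.10 over all genes. These values lean on the weak array: for Nfkb1, the knockout DMSO arrays read 9.10 and 7.16, for Nfkb2 7.83 and 5.11, for Relb 6.13 and 4.71, and for Birc3 5.89 and 7.12. Each second value was not detected. Without it the 10 differences ran from -0.05 for Tnip1 to 0.75 for Nfkbie, with a median of 0.22 against -0.01 over all genes, and 0 of the 10 had an unadjusted p under 0.05. Nfkbie then stood at 0.75 ± 0.36 (95% interval -0.09 to 1.59) and Nfkbia at 0.42 ± 0.24 (95% interval -0.14 to 0.97). Both genes had c-di-GMP arrays above both DMSO arrays, as had Nfkb2 and Relb, 4 of the 10 against 18.7% of all genes. On the weak array Nfkbie, Nfkb2 and Relb were not detected.

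**Figure D3:**
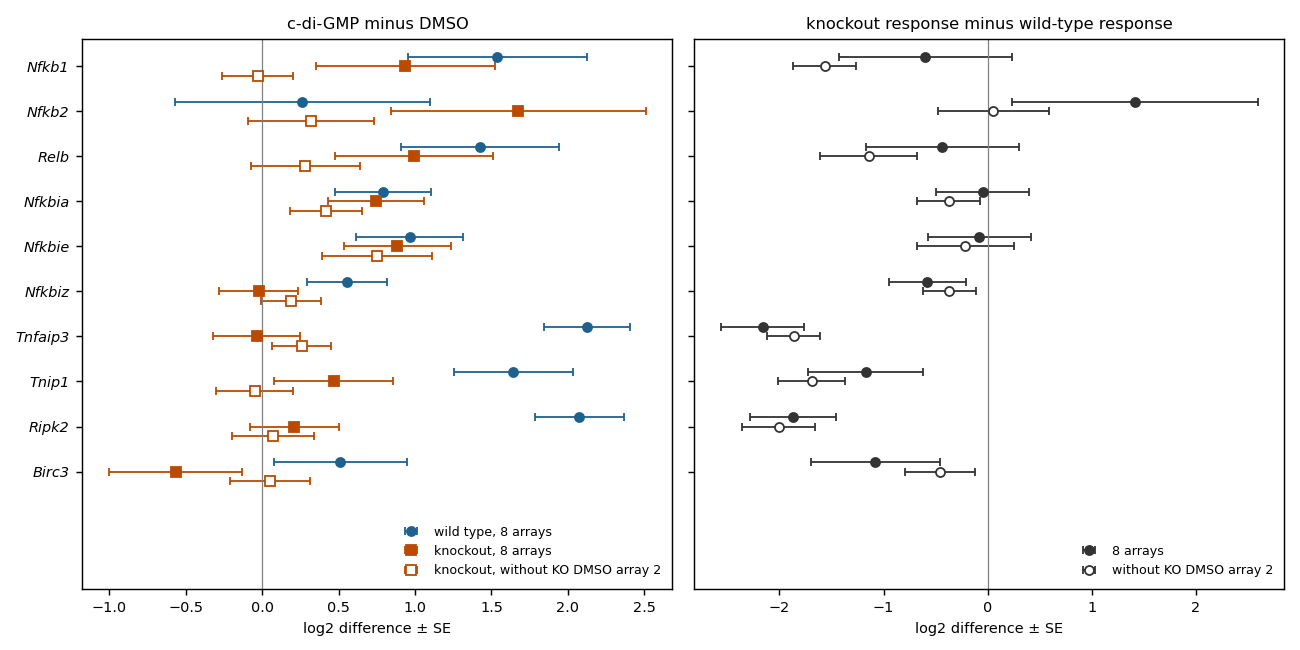
Left, log2 difference between c-di-GMP and DMSO in wild-type cells (blue) and knockout cells (orange, open without the weak knockout DMSO array), with SE bars. Right, the knockout response minus the wild-type response with (filled) and without (open) that array. In the open series Tnfaip3, Ripk2, Nfkb1 and Tnip1 lie lowest, between -2.01 and -1.57.

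The knockout response was then set against the wild-type response. With all arrays limma called 0 of the 10 genes, against 0.0419% of all genes called lower. At an unadjusted p under 0.05 stood 2 of the 10 genes, Tnfaip3 and Ripk2, against 506 of all 9554 genes. Tnfaip3 stood at -2.16 ± 0.40 (adjusted p = 0.242) and Ripk2 at -1.87 ± 0.41 (adjusted p = 0.382), a smaller response in knockout cells. The dimmer Ripk2 probe stood at -1.10 ± 0.36. The brightest Tnip1 probe stood at -1.17 ± 0.55, and its other detected probes at -0.05 ± 0.92 and -0.91 ± 0.47, so the Tnip1 probes differed in size. Without the weak array Tnfaip3 was called (-1.87 ± 0.25, adjusted p = 0.0287), against 0.827% of all genes called lower. Ripk2 (-2.01 ± 0.35, adjusted p = 0.059), Nfkb1 (-1.57 ± 0.30, 0.0828) and Tnip1 (-1.69 ± 0.32, 0.082) did not pass. For Nfkbia and Nfkbie the difference was -0.38 (95% interval -1.09 to 0.34) and -0.21 (95% interval -1.30 to 0.87), intervals that span 0. Nfkb2 stood at 0.05 ± 0.53. With all arrays 1 of the 10 differences was positive, Nfkb2 at 1.41 ± 1.18, which rests on its undetected reading.

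The genotypes also differed without c-di-GMP, in cells given DMSO with the lipid reagent. Under DMSO, Nfkbiz, Tnfaip3, Ripk2 and Nfkbia were lower in knockout cells, by 3.41-fold, 2.76-fold, 2.97-fold and 2.62-fold. That is 4 of the 10 genes called lower and 0 higher, against 7.47% and 5.22% of all genes. All 4 calls were lost on leaving out either wild-type DMSO array, and all but Nfkbiz on leaving out either knockout c-di-GMP array. Calls over all genes fell in these fits too. Without the first knockout DMSO array that group is the weak array alone, and calls rose among the members as over all genes. Nfkbiz read 12.12 and 12.08 in wild-type and 10.12 and 10.54 in knockout cells (-1.77 ± 0.26, adjusted p = 0.00746). Differences were -1.47 ± 0.28 for Tnfaip3 (adjusted p = 0.0201), -1.57 ± 0.29 for Ripk2 (0.0179) and -1.39 ± 0.31 for Nfkbia (0.0348). Both knockout arrays lay below both wild-type arrays for these genes and for Tnip1 (-1.28 ± 0.39, adjusted p = 0.0798), 5 of the 10 against 29.6% of all genes. Nfkbie was the 1 gene with both knockout arrays above, 0.26 ± 0.35, against 25% of all genes. Its weak-array reading, 5.67, was not detected. The dimmer Ripk2 probe, not detected in knockout cells, differed by -0.32 ± 0.26 under DMSO (adjusted p = 0.432 among all detected probes).

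Without the weak array the same 4 genes were called lower and Nfkb1 was called higher, against 14.1% of all genes lower and 14% higher. Nfkb1 then read 9.10 in knockout cells against 8.30 and 8.02 in wild type (0.94 ± 0.23, adjusted p = 0.0226). With all arrays Nfkb1 had stood at -0.02 ± 0.59, so its sign turns with the undetected reading. Nfkb2 also changed sign, from -0.36 ± 0.83 to 1.00 ± 0.41, and passed in neither fit (adjusted p = 0.789 and 0.113). Relb, at -0.86 ± 0.52 and -0.15 ± 0.36, passed in neither.

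The genotypes were also compared with c-di-GMP on both sides, where the weak array enters the spread but not the differences. In knockout cells 5 of the 10 genes were lower and 0 higher, against 8.13% and 5.84% of all genes. Leaving out replicate 1 of treated wild-type cells, or either knockout array of this comparison, lost the calls of Tnip1 and Nfkbia. Fewer of all genes were called in these fits too. Tnfaip3 was lower by 12.3-fold (-3.63 ± 0.28, adjusted p = 0.000462) and Ripk2 by 10.8-fold (-3.44 ± 0.29, adjusted p = 0.000672). Tnip1 was lower by 5.49-fold (-2.46 ± 0.39, adjusted p = 0.00843), Nfkbiz by 5.10-fold (-2.35 ± 0.26, adjusted p = 0.00189) and Nfkbia by 2.70-fold (-1.43 ± 0.31, adjusted p = 0.0279). When all detected probes were tested, the dimmer Ripk2 probe, not detected in knockout cells, differed by -1.42 ± 0.26 (adjusted p = 0.0146). Detected Tnip1 probes other than the brightest differed by -2.38 ± 0.65 and -1.03 ± 0.33 and did not pass (adjusted p = 0.0616 and 0.101). Both knockout arrays lay below both wild-type arrays for 8 of the 10 genes, against 32.2% of all genes, and above for Nfkb2, against 40.1%.

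With the spread taken without the weak array, 7 of the 10 were called lower and 1 higher, against 20.7% and 23.8% of all genes. The additional genes were Relb (-1.29 ± 0.29, adjusted p = 0.0101) and Nfkb1 (-0.62 ± 0.19, adjusted p = 0.0326), both lower, and Nfkb2, higher by 1.06 ± 0.34 (adjusted p = 0.0385). Nfkb2 read 8.11 and 8.17 in knockout against 6.52 and 7.66 in wild-type cells. Nfkbie (0.18 ± 0.35) and Birc3 (-0.33 ± 0.43) passed in neither fit. The subunit genes thus did not share 1 direction. The comparisons share their groups with those above, so their counts are not independent of each other.

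**Figure D4:**
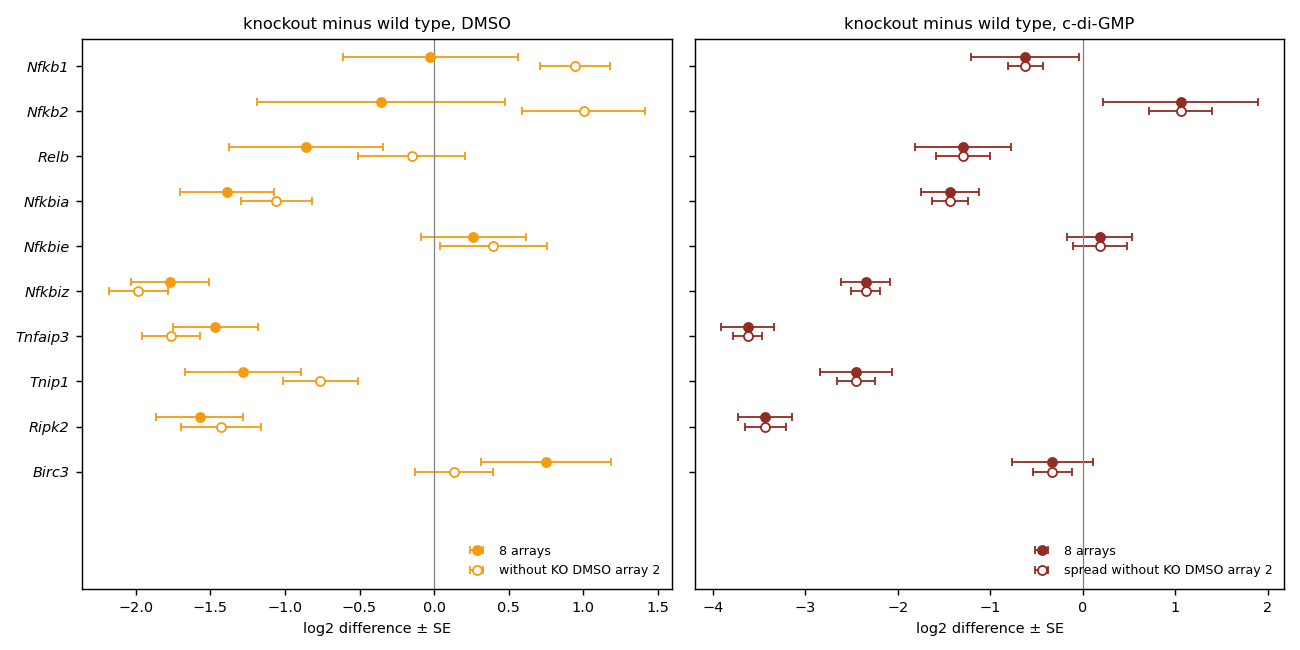
Log2 difference between knockout and wild-type cells (x axis, SE bars) for the 10 genes under DMSO (left) and with c-di-GMP (right). Filled points use all arrays; open points are without the weak knockout DMSO array, which on the right alters only the bars. On the left Nfkb1 moves from -0.02 to 0.94 and Nfkb2 from -0.36 to 1.00 when that array is left out.

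Markers of leukocytes moved with genotype too. Of 11 such markers on the array, 7 to 8 were detected on each wild-type array and 0 to 4 on each knockout array. Their summed normalized intensity was 4389 to 4483 in wild-type DMSO cells and 3372 to 3818 with c-di-GMP, but 391.2 to 615.1 in knockout DMSO cells and 553.4 to 576 with c-di-GMP. Lyz2, a lysozyme gene of myeloid cells, read 10.67 to 11.22 in wild-type and 4.80 to 5.03 in knockout cells, and Adgre1, the macrophage marker F4/80, 9.11 to 9.75 and 4.55 to 4.67. Cd14, on the same list, went the other way, with 6.60 to 7.21 in wild-type cells and 7.90 to 8.10 in knockout cells without the weak array, on which it was not detected. Ptprc and Itgam were among those detected on no array. In these bulk samples fewer cells of a type and less RNA per cell cannot be told apart. The part of these markers in the genotype differences was not tested. Fibroblast marker sums were 42090 to 49348 in wild-type cells. In knockout cells they were 32628 to 35354 on 3 arrays, below every wild-type array, and 57871 on the weak array. The collagen gene Col1a1 read 12.71 to 13.54 in wild-type and 10.06 to 11.17 in knockout cells, while Dcn, which encodes decorin, read 12.27 to 12.40 and 13.31 to 14.67. The part of the fibroblast markers in the genotype differences was not tested either.

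The rest of the pathway was described from lists. In wild-type cells limma called 0 genes of 5 lists for c-di-GMP. At an unadjusted p under 0.05 stood 18 of their 67 genes, against 640 of all 9554 genes. Medians of these lists were 0.12 for other subunits and IkB genes (6 tested), 0.20 for IKK and upstream kinases (14), 0.56 for adaptors and ubiquitin machinery (12), 0.09 for other negative regulators (13) and 0.65 for target genes (22). The median over all genes was -0.06. The 2 smallest p within each list, in the same order, belonged to Nkrf (-0.95 ± 0.28) and Nfkbid (0.85 ± 0.26), to Map3k8, which encodes the kinase Tpl2 (1.87 ± 0.39), and Tab1 (-0.73 ± 0.31), to the adaptor genes Nod1 (1.21 ± 0.29) and Myd88 (1.68 ± 0.46), to Pdlim2 (-0.70 ± 0.29) and Traf4 (-0.90 ± 0.39), and to the targets Il6 (1.71 ± 0.28) and Ptgs2 (1.86 ± 0.39). Without the weak array the share of all genes called rose in both directions. In that fit genes of each of the 5 lists were called higher and none lower. They included Map3k8 (adjusted p = 0.0022), Myd88 (0.00337), Nod1 (0.0117), the messenger-destabilising factor Zfp36 (1.43 ± 0.17, 0.00493), Il6 (0.00609) and the cyclooxygenase gene Ptgs2 (0.00987).

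**Figure D5:**
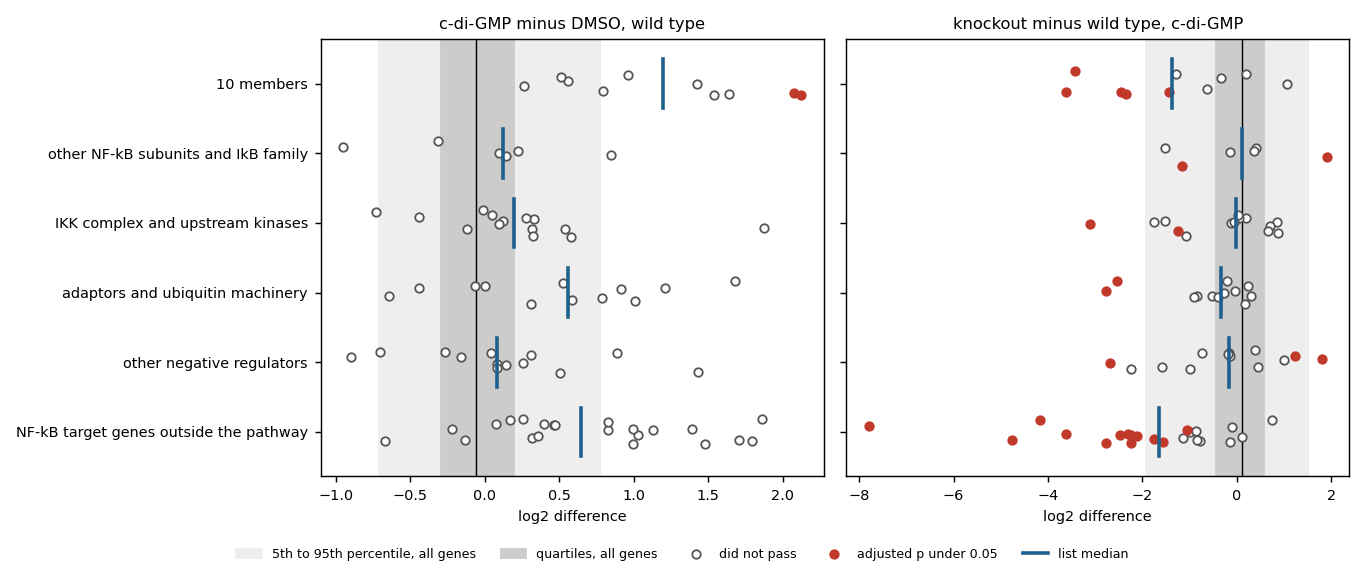
Log2 differences (x axis) of the 10 members and of 5 pathway lists (rows) in the wild-type response (left) and between genotypes with c-di-GMP (right), all arrays. Red points passed, blue bars are list medians, and grey bands show the quartiles and the 5th to 95th percentile of all genes. Fitted values of genes undetected in knockout cells are not measured sizes. Target genes had a median of -1.66 on the right.

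In knockout cells, and in the difference of responses, limma called 0 genes of the lists with all arrays (3 and 5 at an unadjusted p under 0.05). The nitric oxide synthase gene Nos2 was called for the difference of responses only without the weak array, where more of all genes were called too. The lists held 67 genes, and of all 9554 genes 254 and 506 had an unadjusted p under 0.05 in these comparisons with all arrays. Between genotypes, 10 of the 22 target genes were lower under DMSO and 0 higher, against 7.47% and 5.22% of all genes. Their median was -1.11 against -0.11 over all genes (-0.71 with genes undetected in a group at their bounds). With c-di-GMP 13 were lower and 0 higher, against 8.13% and 5.84% of all genes, with a median of -1.66 against 0.10 (-1.49 at bounds). When the weak array was left out, 12 target genes were lower and 0 higher under DMSO, against 14.1% and 14% of all genes, and 18 were lower and 1 higher with c-di-GMP, against 20.7% and 23.8%. The other lists were counted with all arrays and with higher and lower calls together. Under DMSO the calls were 0 of 6 subunit and IkB genes, 2 of 14 kinases, 1 of 12 adaptors and 4 of 13 negative regulators. Of these, 2 negative regulators were higher, against 7.47% of all genes lower and 5.22% higher. With c-di-GMP the calls were 2, 2, 2 and 3. Of these, 1 subunit or IkB gene and 2 negative regulators were higher, against 8.13% of all genes lower and 5.84% higher. Il6, which encodes interleukin 6, was detected on no knockout array and was lower by at least 25.8-fold under DMSO (adjusted p = 7.91e-05) and at least 174-fold with c-di-GMP (adjusted p = 1.83e-05). An undetected group gives only such a bound, set by the lowest detected signal of its arrays.

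The iron-binding protein gene Lcn2 was lower under both, with log2 differences of -4.88 ± 0.34 under DMSO and -4.76 ± 0.34 with c-di-GMP. Lcn2 was not detected on the weak array, and without it stood at -4.45 under DMSO. The chemokine genes Ccl2 (-2.31 ± 0.38 and -2.31 ± 0.38) and Ccl7 (-1.59 ± 0.35 and -2.24 ± 0.35), the adhesion gene Vcam1 (-1.29 ± 0.28 and -2.47 ± 0.28) and Tnfaip2 (-1.73 ± 0.27 and -2.11 ± 0.27) were lower under both. So were the collagenase gene Mmp13, by at least 4.18-fold under DMSO and with a log2 difference of -4.16 ± 0.25 with c-di-GMP, where 1 knockout array detected it, and Slfn2, by at least 1.5-fold and at least 8.65-fold. Cxcl2 was called under both, with no bound above 1 under DMSO and at least 3.49-fold lower with c-di-GMP. Tnfrsf9 was called under DMSO, also with no bound above 1, and with c-di-GMP only without the weak array (adjusted p = 0.0955 and 0.0227). Further calls with c-di-GMP were Cxcl1 (-1.06 ± 0.24), Ptgs2 (-1.76 ± 0.39), Tnf (at least 4.83-fold lower) and Nos2 (at least 2.33-fold lower). Cxcl1 was called under DMSO too once the weak array was left out, as was Mmp3. Whether these genes differ in their gap between the treatments was tested only as the difference of responses.

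Among the regulators, Irak3, which encodes the inhibitory kinase-like protein IRAK-M of macrophages, had log2 differences of -2.84 ± 0.38 under DMSO and -2.68 ± 0.38 with c-di-GMP. Map3k8 (-2.10 ± 0.39 and -3.12 ± 0.39) and the sensor gene Nod1 (-2.06 ± 0.29 and -2.76 ± 0.29) were also lower under both. Irak3 and Map3k8 were not detected on the weak array, and without it stood at -2.40 and -1.56 under DMSO. The deubiquitinase gene Cyld (1.45 ± 0.31 and 1.22 ± 0.31) and Pdlim2 (1.34 ± 0.29 and 1.80 ± 0.29) were higher under both. Ikbkg, which encodes the IKK scaffold NEMO, was called lower under DMSO (-2.64 ± 0.67, and -1.49 ± 0.21 without the weak array), as was the ribonuclease gene Zc3h12a (-2.53 ± 0.58, and -1.64 ± 0.32). With c-di-GMP the calls were Myd88 (-2.53 ± 0.46), Tbk1 (-1.24 ± 0.32) and Nfkbid (at least 2.07-fold lower), and Nkrf, higher by 1.90 ± 0.28. In the fit without the weak array more genes of these lists were called, as were more of all genes. Among them were Ikbkg and Zc3h12a with c-di-GMP, and Myd88 and Nkrf under DMSO. Bcl3, Ripk1 and Zfp36 were then called lower under both, and Tab3 higher under both.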

How the data were processed

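Per the file headers, the authors deposited raw probe intensity, each signal paired with a detection p-value, exported with GenomeStudio 2010.2 per the submitters' processing notes. The sources used here do not say how background was treated or what the detection p-value compares. They also deposited normalized intensity on a linear scale; no method for it is named, and the series' value table held the same values (0 cells differ).

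Here R 4.3.3 and limma 3.58.1 were used. The neqc function estimated background from the detection p-values by normexp, added an offset of 16, quantile-normalized and took log2. Probes with detection p under 0.05 on at least 2 of 8 arrays were kept (13026), and each gene was represented by its brightest probe. Names were updated through the GRCm38.p6 gene table. Of the probes, 20733 had a current symbol, 3872 a synonym of one and 122 a gene number that led to one. A further 939 kept the name of the file, and 31 carry a date in place of a name or no name. The limma model had 4 group means and 1 shared spread, with two-sided tests adjusted over 9554 genes. The number of arrays limits the precision. Intervals are 95% intervals of the model.

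Groups come from the sample titles. Members and lists were chosen with earlier results of these data known. All members were named. Of the pathway lists, genes that passed a comparison were named, or else the 2 with the smallest p in wild-type cells. Alternatives were another background correction, scaling, filter, probe rule, weighting, set of arrays and the replicate number as a block. The slide was not analysed here.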

Additional observations from a re-analysis of the deposited data

How the results depend on the processing

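The main counts were 2 members and 57 genes for the wild-type response, 0 and 0 for the knockout response, 0 and 4 for the difference of responses, 4 and 1213 for the genotypes under DMSO, and 5 and 1335 for the genotypes with c-di-GMP. Leaving out the weak array before normalization, and median scaling without it, were chosen after seeing the data. For each alternative only the counts that moved far from the main count are given. The counts left out stayed near it. Without background correction the calls were 87 genes for the wild-type response, 15 genes for the difference of responses. Without background correction the sign turned for Nfkb1 (0.043) for the genotypes under DMSO. Under median scaling the calls were 0 members and 0 genes for the wild-type response, 0 genes for the difference of responses, 0 members and 92 genes for the genotypes under DMSO, 0 members and 148 genes for the genotypes with c-di-GMP. Under median scaling the sign turned for Tnfaip3 (0.92), Nfkbiz (1.35), Birc3 (0.16) for the knockout response, and Nfkbia (1.30), Nfkbie (0.47), Nfkbiz (0.88), Nfkb1 (0.49) for the difference of responses. The median over all genes then stood at 0.93 for the knockout response and 1.17 for the difference of responses, so these signs moved with the genes at large. On the authors' normalized table the calls were 87 genes for the wild-type response, 15 genes for the difference of responses. On the authors' normalized table the sign turned for Nfkb1 (0.034) for the genotypes under DMSO. With every detected probe tested the count that moved was that for the difference of responses, 1 gene. The wild-type response then had 2 members and 60 genes. With array weights the calls were 5 members and 492 genes for the wild-type response, 1 gene for the difference of responses, 0 members and 274 genes for the genotypes under DMSO, 4024 genes for the genotypes with c-di-GMP. With the groups compared alone the calls were 4 members and 272 genes for the wild-type response, 0 members and 104 genes for the genotypes under DMSO, 3929 genes for the genotypes with c-di-GMP. With the replicate block the calls were 0 members and 12 genes for the wild-type response, 0 genes for the difference of responses. With the weak knockout DMSO array left out before normalization the calls were 5 members and 547 genes for the wild-type response, 1 member and 52 genes for the difference of responses, 2641 genes for the genotypes under DMSO, 8 members and 4201 genes for the genotypes with c-di-GMP. With the weak knockout DMSO array left out before normalization the sign turned for Tnfaip3 (0.27), Nfkbiz (0.19), Nfkb1 (-0.031), Birc3 (0.055), Tnip1 (-0.050) for the knockout response, and Nfkb1 (0.95), Nfkb2 (1.03) for the genotypes under DMSO. Under median scaling without that array the calls were 104 genes for the wild-type response, 11 genes for the difference of responses, 1 member for the genotypes under DMSO, 2541 genes for the genotypes with c-di-GMP. Under median scaling without that array the sign turned for Tnfaip3 (0.22), Nfkbiz (0.13), Nfkb1 (-0.094), Birc3 (0.0042), Tnip1 (-0.10) for the knockout response, and Nfkbie (0.076) for the difference of responses, and Nfkb1 (1.27), Nfkb2 (1.36), Relb (0.033) for the genotypes under DMSO. The medians over all genes were then -0.06, 0.18 and 0.31, in the same order of comparisons. Leaving out each array in turn gave 0 to 5 members and 0 to 560 genes for the wild-type response, 0 to 7 members and 0 to 5487 genes for the knockout response, 0 to 5 members and 0 to 4636 genes for the difference of responses, 0 to 9 members and 270 to 6129 genes for the genotypes under DMSO, 3 to 8 members and 372 to 4244 genes for the genotypes with c-di-GMP. Signs turned on leaving out 1 array for Nfkb2 (-0.31 to 0.83) for the wild-type response, Tnfaip3 (-0.33 to 0.26) for the knockout response, Nfkbiz (-0.24 to 0.19) for the knockout response, Nfkb1 (-0.031 to 1.91) for the knockout response, Birc3 (-1.19 to 0.051) for the knockout response, Tnip1 (-0.050 to 0.99) for the knockout response, Nfkbia (-0.38 to 0.28) for the difference of responses, Nfkbie (-0.51 to 0.35) for the difference of responses, Nfkb1 (-1.57 to 0.37) for the difference of responses, Relb (-1.14 to 0.28) for the difference of responses, Nfkb1 (-0.99 to 0.94) for the genotypes under DMSO, Nfkb2 (-1.72 to 1.00) for the genotypes under DMSO, Nfkbie (-0.25 to 0.61) for the genotypes with c-di-GMP. The replicate numbers did not pair the arrays (correlations of deviations -0.03 to 0.06), so the block is given only here. The cause of these changes was not tested. Signal over background limits the weak array, on which 7 of the members were not detected. The slide as a block was not run.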

Other observations

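The mean profile of the 10 genes, each centred on its own mean, was highest on the wild-type c-di-GMP arrays (1.21 and 1.08 log2 units above the mean) and lowest on the weak knockout DMSO array (-1.12). Wild-type DMSO arrays stood at -0.03 and -0.06, knockout c-di-GMP arrays at -0.27 and -0.30 and the first knockout DMSO array at -0.51. Among genes outside the members, Ifit2, an interferon-stimulated gene of antiviral defence, followed this profile most closely over the 8 arrays (Pearson's r = 0.994). It was followed by Apobec1, an RNA-editing enzyme gene (0.994), Whamm, an actin nucleation gene (0.991), Tank, an adaptor that restrains TRAF and TBK1 signalling (0.991), and Socs1, a brake on cytokine signalling (0.987). Over the 7 arrays without the weak one these values were 0.987 to 0.995. The arrays share the same groups and normalization, so the correlations are descriptions over few points.

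The members did not all follow their own mean. Over the 7 arrays Tnip1 (r = 0.980), Tnfaip3 (0.971) and Ripk2 (0.970) were closest to it, while Nfkbie stood at 0.278 and Nfkb2 at -0.50.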
